A study of Mus musculus with 8 samples.

Results

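Interferon-responding CD8 T cells are described here as a set of 214 cells among 4673 CD8 T cells of B16-OVA melanomas in mice, out of 15700 cell barcodes in the deposited table. A cell barcode was kept with 500 to 6000 detected genes, 2000 to 40000 unique molecular identifiers (UMIs, each counting 1 captured transcript), a ribosomal protein share of 5 to 60% and a mitochondrial share under 10%, which left 12828. A CD8 T cell had at least 1 UMI of Cd8a or Cd8b1, at least 1 of Cd3d, Cd3e or Cd3g, and 0 of Cd4, Lyz2, Cd79a and Ncr1. The interferon-responding cells were then those with at least 3 UMIs of Ifit1 and Ifit3 together and 0 of Mki67, and 3359 CD8 T cells with 0 UMIs of Ifit1, Ifit3 and Mki67 (3912 with Mki67 left free) served as the Ifit-negative cells to compare with. The levels of Ifit1, Ifit3 and Mki67 thus chose the cells and are given without a test.

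The cells came from C57BL/6 mice that received tumor cells at an age of 7 weeks. Tumor-infiltrating CD45+ cells enriched for CD8+ cells were sorted, and their RNA was read with the 10x Genomics 5′ assay in 8 libraries, 1 for each condition and day after adoptive cell transfer (ACT), with the tumors of several mice pooled. Transferred cells were OT1 CD8 T cells, whose receptor recognises a peptide of ovalbumin, given repeatedly and without lymphodepletion. They were untransduced (days 5 and 12), or carried retroviral vectors for PD1d, a secreted decoy made of the outer part of PD-1 and a human IgG4 Fc, with IL-2v, an IL-2 variant that does not bind CD25 (PD1d/IL-2v ACT, day 12), with the alarmin IL-33 (PD1d/IL-33 ACT, day 12), or were an equal mixture of both cell products (PD1d/IL-2v/IL-33 ACT, days 5, 12 and 26). Tumors labelled non-treated at day 5 gave the last library. Host and transferred CD8 T cells could not be told apart by the gate. The libraries held between 1387032 UMIs (untransduced ACT, day 12) and 24917112 UMIs (PD1d/IL-2v/IL-33 ACT, day 26).

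Type I interferons bind the receptor made of IFNAR1 and IFNAR2, whose kinases JAK1 and TYK2 phosphorylate STAT factors. A complex of these with IRF9 binds the interferon-stimulated response element (ISRE) in front of interferon-stimulated genes (ISGs). Interferon gamma acts through the receptor made of IFNGR1 and IFNGR2, and the ISGs of both pathways overlap. In tumors, T cells with high ISG levels are a known population.

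The promoter sequences of the genes that mark these cells are shown because the ISRE is what the classical ISGs share. The 250 bases before each start site in RefSeq (GRCm38.p6, the build of the counts) were searched for GAAANNGAAA and, on the other strand, TTTCNNTTTC, overlapping matches included. Of 27025 genes with an entry, 936 (3.46%) held a match. Stretches around the matches are written 5′ to 3′ on the strand of the gene, with matches in capitals.
Ifit1 (chr19:34640765-34640833, plus strand): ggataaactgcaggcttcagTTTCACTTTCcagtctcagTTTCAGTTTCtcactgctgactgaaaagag
Ifit3 (chr19:34583353-34583436, plus strand): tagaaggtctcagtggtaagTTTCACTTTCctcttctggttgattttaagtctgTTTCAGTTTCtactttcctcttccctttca
Isg15 (chr4:156200855-156200916, minus strand): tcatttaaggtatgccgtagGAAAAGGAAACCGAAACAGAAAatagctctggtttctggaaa
Rsad2 (chr12:26456543-26456592, minus strand): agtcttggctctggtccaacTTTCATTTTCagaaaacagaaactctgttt
Bst2 (chr8:71537567-71537622, minus strand): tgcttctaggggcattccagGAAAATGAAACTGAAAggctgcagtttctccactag
Cxcl10 (chr5:92349073-92349122, minus strand): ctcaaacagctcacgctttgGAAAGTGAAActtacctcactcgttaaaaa
Oas3 (chr5:120777705-120777754, minus strand): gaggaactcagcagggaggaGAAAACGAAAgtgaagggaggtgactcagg

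Ifit1 and Ifit3, the genes that chose the cells, each held 2 matches, starting 104 and 85 bases before the start site of Ifit1 and 156 and 122 bases before that of Ifit3. The 84 bases shown for Ifit3 were identical in 84 of 84 positions to those of its neighbour Ifit3b (chr19:34607749-34607832), a near-identical copy of the gene, so reads of Ifit3 and Ifit3b can be split wrongly and the counts of both are uncertain. Isg15 held 3 overlapping matches and Bst2 held 2. Mx1 has no entry. Over the interferon lists, the motif was held by 11 of 20 interferon genes, 19 of which were too low to test here, by 5 of 6 IFIT genes with an entry (not Ifit2), 10 of 11 guanylate-binding proteins and immunity-related GTPases (IRGs), 8 of 11 IFI200, 4 of 7 OAS and 3 of 7 Schlafen genes. It was also found in antiviral effectors (9 of 38), MHC class I and peptide supply genes (3 of 16), STAT and IRF factors (2 of 9), feedback inhibitors (1 of 4), ISG15 conjugation genes (1 of 5), nucleic acid sensors (1 of 7), LY6, IFITM and Plac8 genes (1 of 8), and in 0 of 7 receptors and kinases. Promoters were counted for listed genes with an entry, also for those absent from the deposited gene list. Of the IFI200 genes with a match, Ifi206, Ifi207, Ifi208, Ifi211 and Ifi213 were absent from it. A match is a run of letters and not a shown binding site.

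The chosen cells were few in every library. They were 4.58% of CD8 T cells over all libraries (95% Clopper-Pearson interval 4.0 to 5.22). By library they were 142 of 2152 CD8 T cells in day 26 of PD1d/IL-2v/IL-33 ACT (6.6%, 5.59 to 7.73), 24 of 469 in PD1d/IL-2v ACT at day 12 (5.12%, 3.31 to 7.52) and 15 of 408 in untransduced ACT at day 5 (3.68%, 2.07 to 5.99). They were 12 of 485 in day 5 of PD1d/IL-2v/IL-33 ACT (2.47%, 1.28 to 4.28), 16 of 697 at day 12 (2.30%, 1.32 to 3.70) and 4 of 355 in PD1d/IL-33 ACT at day 12 (1.13%, 0.308 to 2.86). Non-treated tumors gave 1 of 70 (1.43%, 0.0362 to 7.70), and untransduced ACT at day 12 gave 0 of 37, which allows a share of up to 8.11% by a floor of 3 cells and up to 9.49% by the Clopper-Pearson interval. The highest share was thus that of day 26 of PD1d/IL-2v/IL-33 ACT, whose interval did not overlap those of the same treatment at days 5 and 12 or of PD1d/IL-33 ACT, but did overlap those of PD1d/IL-2v ACT, of untransduced ACT on both days and of non-treated tumors. These intervals cover counting error only, no condition was repeated, and no test between libraries was possible.

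**Figure D1:**
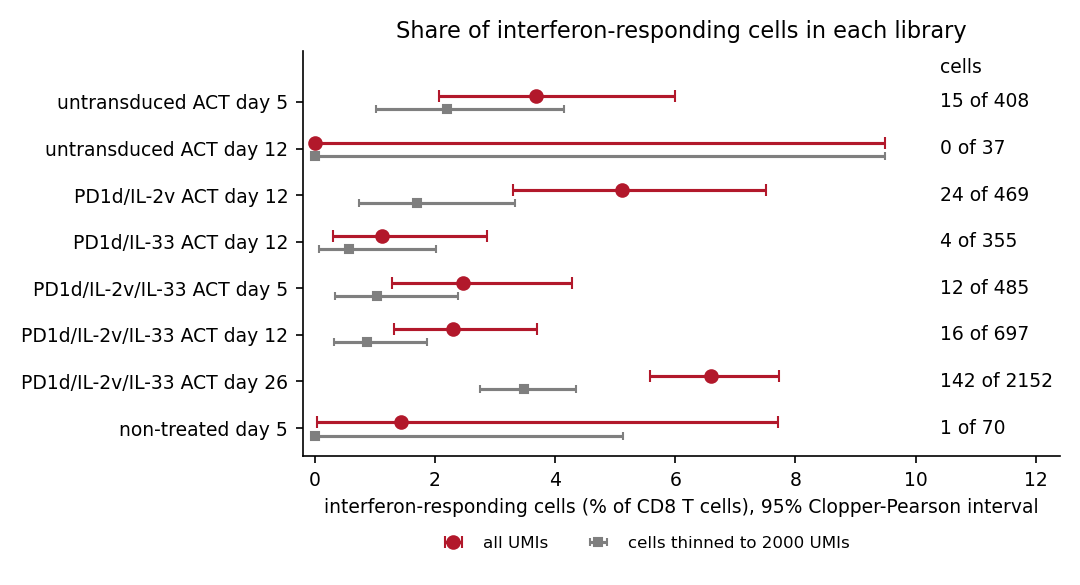
Percent of CD8 T cells that were interferon-responding in each of 8 libraries (x axis), with exact 95% Clopper-Pearson intervals, from all UMIs (red circles) and after each cell was thinned to 2000 UMIs (gray squares). day 26 of PD1d/IL-2v/IL-33 ACT has the highest share by both counts (6.6% and 3.49%).

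Depth bears on such a share, so each cell was also thinned to 2000 UMIs. Then 105 CD8 T cells (2.25%) had at least 3 UMIs of Ifit1 and Ifit3 and 0 of Mki67, and day 26 of PD1d/IL-2v/IL-33 ACT was again highest (3.49%), followed by untransduced ACT at day 5 (2.21%) and PD1d/IL-2v ACT (1.71%). Day 26 gave 66.4% of the interferon-responding cells, so values pooled over libraries are mostly its values. Over all libraries, interferon-responding and Ifit-negative cells had medians of 5688 and 5582 UMIs. Interferon-responding cells were shallower in 3 of the 5 libraries that had at least 10 of them, at 5178 against 6373 UMIs in untransduced ACT at day 5, and at 5544.5 against 6791.5 and 6751 against 7267 at days 5 and 12 of PD1d/IL-2v/IL-33 ACT. They were deeper in the other two, at 7961 against 7707 in PD1d/IL-2v ACT and 5356 against 5020.0 at day 26. Other cells of the same tumors with at least 3 such UMIs were 41 of 1116 CD4 T cells (3.67%), 103 of 1191 Lyz2+ myeloid cells (8.65%, at a median of 9253 UMIs) and 11 of 1706 NK cells (0.645%, at a median of 5391 UMIs). The CD8 T cell share without the limit on Mki67 was 5.03% at a median of 5933 UMIs. The order of these shares was not the same in each library. In untransduced ACT at day 5 they were 16.4% of myeloid, 7.01% of CD4 T and 4.90% of CD8 T cells. At day 26 of PD1d/IL-2v/IL-33 ACT they were 5.69%, 4.43% and 7.16%. Among CD8 T cells with Mki67, 21 of 617 (3.40%, at a median of 10898 UMIs) had at least 3 UMIs, and of those without it 214 of 4056 (5.28%, at a median of 5589.5 UMIs). That order differed between libraries, with 6.17% of cells with Mki67 and 4.59% of those without in untransduced ACT at day 5, and with intervals that overlapped in each library. Of the barcode sequences, 143 occurred in more than 1 library, among them those of 8 interferon-responding cells.

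The cells lay on a range and not apart from the rest. Among CD8 T cells without Mki67, 360 had 1 UMI of Ifit1 and Ifit3 together, 123 had 2, 50 had 3, 35 had 4, 64 had 5 to 9 and 65 had 10 or more, with a maximum of 47. Ifit1 and Ifit3 were both seen in 183 of the 214 cells. In the 5 libraries with at least 10 such cells, Ifit1 was at 395 to 939 CPM (UMIs scaled to an equal total in each library and class) and Ifit3 at 300.0 to 900.0, as the choice requires. Beside Ifit1 and Ifit3, the number of 94 other interferon pathway genes detected in a cell at 2000 UMIs was counted. These are the genes of the lists of ISG15 conjugation, IFIT, OAS, nucleic acid sensors, antiviral effectors, STAT and IRF factors and feedback inhibitors, so they hold some genes, such as Pias1, Ptpn2, Cish and Irf8, that did not rise, and leave out the guanylate-binding, IFI200 and Schlafen families. They include Ifit3b, whose reads can be those of Ifit3, and with Ifit3b left out the medians below were the same except for 22 at 5 to 9 UMIs. The median was 10 in Ifit-negative cells, 12 at 1 UMI, 15 at 2, just outside the limit, 16 at 3, just inside it, 19 at 4, 23 at 5 to 9 and 30 at 10 or more. Of the interferon-responding cells, 59 (27.6%) lay at or below the 95th percentile of Ifit-negative cells, and 13 Ifit-negative cells (0.387%) reached the median of interferon-responding cells (22).

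**Figure D2:**
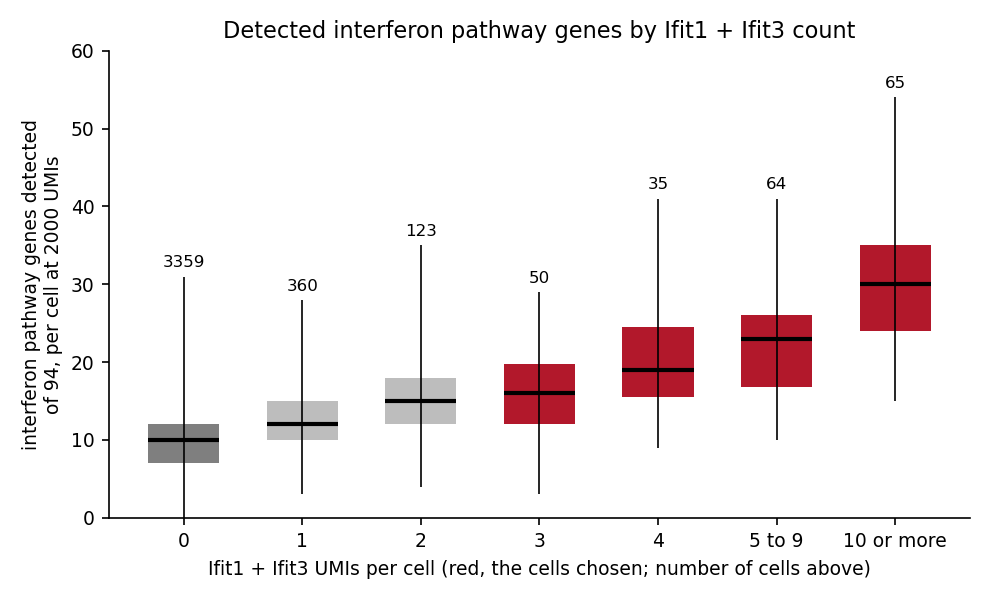
Number of 94 interferon pathway genes (Ifit1 and Ifit3 left out) detected per CD8 T cell without Mki67 after thinning to 2000 UMIs (y axis), by the cell's Ifit1 and Ifit3 UMIs (x axis). Black lines are medians, boxes quartiles, vertical lines the full range and numbers the cells, and medians go from 10 at 0 UMIs to 30 at 10 or more, with ranges that overlap.

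Within each of the 5 libraries that had at least 10 interferon-responding cells (209 cells together), their median exceeded that of Ifit-negative cells by 10 to 16 of these genes, with a mean of 12.8 (exact two-sided sign-flip permutation test, p = 0.0625, the smallest that 5 libraries allow). Without Ifit3b, left out after the data were seen, the mean was 12.7 (9.5 to 16, the same p). The cells were chosen on Ifit1 and Ifit3, which vary with these genes, so a positive difference followed from the choice. The p adds no separate support. The interferon-responding median was 26 in untransduced ACT at day 5, 21.5 in PD1d/IL-2v ACT, and 19, 22.5 and 22 in PD1d/IL-2v/IL-33 ACT (days 5, 12 and 26). The 94 genes together took 30360 CPM in interferon-responding cells of untransduced ACT at day 5 (95% Poisson interval 29156 to 31602), against 19495 to 22143 in the other 4 libraries. In Ifit-negative cells of these 5 libraries they took 5370 to 8286, so that the 2 classes of cells did not overlap over libraries.

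Genes were compared between both classes of cells within these 5 libraries, with UMIs summed per library and class and the library as a block (edgeR's quasi-likelihood test, Benjamini-Hochberg adjusted p under 0.05). The P values rest on 5 libraries of different conditions (4 residual degrees of freedom) and on an estimate of spread that edgeR shares among genes. A small P value therefore does not show that the libraries agreed. Gbp10 was called higher though it was higher in only 2 of 5 libraries, and Gzmg though it was higher in only 1. Of 8998 genes tested, 295 rose (3.28%) and 244 fell (2.71%) in interferon-responding cells, with a median log2 fold change of -0.09. Genes that vary with Ifit1 and Ifit3 from cell to cell differ because the cells were chosen on those, so the counts describe what accompanied the choice. The counts depended on the tool, more so for genes that fell. DESeq2 called 236 higher and 67 lower, and limma-voom with weights for each class, chosen after the data were seen, called 365 higher and 116 lower.

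The other markers of the population, Isg15, Rsad2 and Mx1, are ISGs like Ifit1 and Ifit3, which chose the cells. Their rise accompanied that choice and is not separate support for the population. ISG15 is a ubiquitin-like protein coupled to other proteins. Isg15 was at 1866 CPM in interferon-responding cells of untransduced ACT at day 5, 1084 in PD1d/IL-2v ACT, and 829, 1338 and 1172 in PD1d/IL-2v/IL-33 ACT (days 5, 12 and 26). It was at 29.1 to 42.9 CPM in Ifit-negative cells of these libraries, so the classes did not overlap (log2 fold change 4.99 ± 0.16 SE, adjusted p = 6.71e-217). Rsad2, which encodes the antiviral enzyme viperin, was at 393, 65.8, 214, 312 and 152 CPM in the same order, against 0.677 to 2.99 in Ifit-negative cells (6.75 ± 0.26, adjusted p = 1.14e-143). Mx1, an antiviral GTPase, was at 330, 177, 100.003, 220.0 and 167 CPM, against 4.39 to 7.67 (4.81 ± 0.22, adjusted p = 1.57e-98). Each of the 3 was higher in all 5 libraries, and of these 5 untransduced ACT at day 5 had the highest level of each. Single cells did not all show them. At full depth, 18 of the 214 cells had none of the 3 transcripts, 69 had 1 of them, 68 had 2 and 59 had 3, while 79.9% of Ifit-negative cells had none. At 2000 UMIs, Isg15 was detected in 69.6% of interferon-responding and 7.29% of Ifit-negative cells, Mx1 in 25.2% and 1.58%, and Rsad2 in 22.9% and 0.327%. In the libraries left out of the test, the 4 cells of PD1d/IL-33 ACT had 1483 CPM of Isg15, 152 of Rsad2 and 608 of Mx1, and the single cell of non-treated tumors had Isg15 and Mx1 but no UMI of Rsad2.

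**Figure D3:**
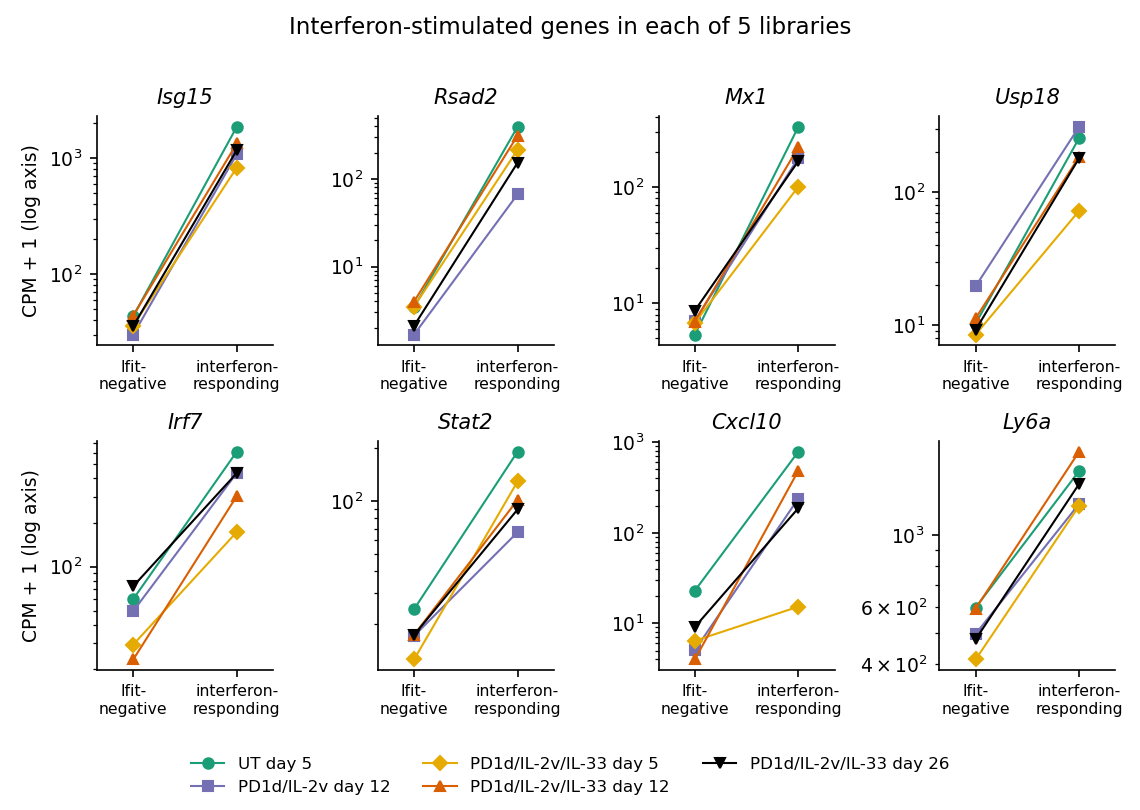
CPM + 1 (y axes, log scale) of 8 ISGs in the summed Ifit-negative and interferon-responding CD8 T cells (x axes) of 5 libraries, 1 line each (UT, untransduced ACT). The levels rise on every line, and Isg15 goes from 29.1 to 42.9 CPM up to 829 to 1866 CPM.

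Ligands and receptors of the pathway came first. Of 20 interferon genes in the deposited gene list, 19 were too low to test, and those 19 had 0 UMIs in interferon-responding cells. Ifng, the interferon gamma gene, was lower. It was at 102, 177, 14.3, 45.8 and 70.6 CPM in interferon-responding cells in the order above, and at 119, 463, 1081, 129 and 136 CPM in Ifit-negative cells (log2 fold change -1.61 ± 0.19, adjusted p = 1.44e-15, lower in 5 of 5 libraries). DESeq2 did not call it (adjusted p = 0.354). Among 6 receptors and kinases tested, Jak1 alone rose (0.47 ± 0.15, adjusted p = 0.0301, higher in 4 of 5 libraries). Its call was lost without untransduced ACT at day 5, PD1d/IL-2v ACT or day 12 of PD1d/IL-2v/IL-33 ACT (0.45, 0.45 and 0.22), and DESeq2 and limma-voom did not call it. Ifnar1, Ifnar2, Ifngr1, Jak2 and Tyk2 did not pass the test (edgeR, adjusted p between 0.282 and 0.861).

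Transcription factors and feedback inhibitors followed. Of 10 STAT and IRF factors, 6 rose and 1 fell. Irf7, which amplifies interferon production, was at 609, 436, 171, 302 and 435 CPM against 22.2 to 72.6 in Ifit-negative cells (3.01 ± 0.17). Stat2, whose protein joins IRF9 at the ISRE, was at 65.8 to 190.4 CPM against 11.7 to 23.4 (2.55 ± 0.23). Irf9 (1.53 ± 0.20), Irf1 and Irf2 rose too. Irf8, a factor of myeloid cells that activated CD8 T cells also use, fell (-1.34 ± 0.20, lower in 5 of 5 libraries). Of 6 feedback inhibitors, Usp18, which removes ISG15 and blocks the type I receptor, was at 71.4 to 309 CPM against 7.5 to 18.6 (4.20 ± 0.21, adjusted p = 4.22e-83), and Socs1, an inhibitor of JAK kinases, rose by 0.89 ± 0.17. Socs3, Cish, Ptpn2 and Pias1 did not pass the test.

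The ISG effectors made up most of the genes that rose in the lists. Of 155 genes tested in 14 interferon lists, 118 rose (76.1%, against 3.28% of all genes tested), 4 fell and 33 did not pass, with a median log2 fold change of 1.53. These lists hold known ISGs together with the interferons, their receptors and regulators, and their genes were taken up with earlier results of these data known. Genes of the ISG15 pathway rose in 5 of 5, among them Herc6, a ligase for ISG15 (2.73 ± 0.22), and Ube2l6, its conjugating enzyme (2.70 ± 0.34). Of the 4 IFIT genes not used for the choice, 3 rose, among them Ifit2 at 57.1 to 140 CPM against 6.19 to 10.7 (3.10 ± 0.28) and Ifit1bl1 (3.54 ± 0.23). Ifit3b, whose reads can be those of Ifit3, had the highest fold change of any listed gene not used to choose the cells (6.96 ± 0.31). Of 7 genes of the OAS family, whose proteins sense double-stranded RNA, 5 rose. Oas3, the most abundant, was at 92.6 to 241 CPM against 8.78 to 25.8 (3.16 ± 0.22). Oas2, Oasl1 and Oasl2 rose by 5.92 ± 0.85, 5.68 ± 0.52 and 4.43 ± 0.39, but Oas2 rested on 16 UMIs in interferon-responding cells, and Oasl1 had no UMI in either class at day 5 of PD1d/IL-2v/IL-33 ACT.

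Of 11 nucleic acid sensors, 8 rose, with Dhx58, Ifih1 and Ddx60, helicases that sense or help sense viral RNA, at 3.47 ± 0.29, 3.36 ± 0.30 and 3.0 ± 0.35, and Zbp1, a sensor of left-handed nucleic acids, the most abundant (2.68 ± 0.15). Of 46 antiviral effectors, 44 rose. Cmpk2, a mitochondrial nucleotide kinase next to Rsad2, rose by 5.44 ± 0.26, and Ms4a4b, a surface protein of T cells, was the most abundant of this list (1.1 ± 0.12). Ifi27 and Trim5 did not pass the test. Of 16 guanylate-binding proteins and IRGs, which act on membranes around pathogens, 15 rose, led by Tgtp1 (3.44 ± 0.43) and Iigp1 (2.98 ± 0.32), while Gbp10 (2.91 ± 0.45) was higher in only 2 of 5 libraries. Of 8 IFI200 genes, a family of DNA sensors, 7 rose, with Pydc4 at 3.08 ± 0.17 and Pydc3 at 2.88 ± 0.18, and Ifi204 at 4.20 ± 0.92 on 20 UMIs in both classes together. Of 5 Schlafen genes 4 rose, with Slfn5 at 4.40 ± 0.35, Slfn8 at 2.73 ± 0.21 and Slfn1 at 2.42 ± 0.17. Several of these families hold near copies, and single members are uncertain for that reason.

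Of 20 genes of MHC class I and peptide supply, 14 rose and 6 did not pass, with a median log2 fold change of 0.63. Of the 20, 19 rose without TMM factors and 6 at 2000 UMIs per cell. Tapbp, which loads peptide onto class I molecules, was at 339 to 622 CPM against 143 to 193 (1.23 ± 0.15), and Psmb10, a subunit of the immunoproteasome, rose by 1.12 ± 0.15. H2-K1, a classical class I heavy chain and the most abundant, was at 3143 to 4823 CPM against 2234 to 3206 (0.35 ± 0.12, adjusted p = 0.0415), so its classes overlapped, and the call was lost without any 1 of the 5 libraries (0.30 to 0.41). H2-T24 (2.10 ± 0.43) was at 0.87 without day 26 of PD1d/IL-2v/IL-33 ACT (adjusted p = 0.757). B2m did not pass the test (0.17 ± 0.12).

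Small membrane proteins moved in both directions. Ly6a (Sca-1) was at 1229 to 1806 CPM against 412 to 596 (1.42 ± 0.13), and Ly6c2 and Ly6e rose too. Ifitm1 and Ifitm2, which restrict the entry of viruses and are known ISGs in other cells, fell. Ifitm2 was at 0, 0, 28.6, 36.7 and 4.87 CPM in interferon-responding cells and at 75.6, 55.5, 95.8, 609 and 8.44 CPM in Ifit-negative cells (-3.32 ± 0.36, adjusted p = 3.76e-18). Ifitm1 was at 0, 5.06, 57.1, 9.17 and 14.6 CPM against 110, 207, 337, 599 and 1.22 (-2.87 ± 0.29), lower in 4 of 5 libraries and higher at day 26, where its 12 UMIs came from 1 of 142 cells, and DESeq2 did not call it (adjusted p = 0.0848). Without day 12 of PD1d/IL-2v/IL-33 ACT their values were -2.37 and -1.99, and without day 26 they were -4.04 and -4.62. Ifitm3 did not pass the test.

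**Figure D4:**
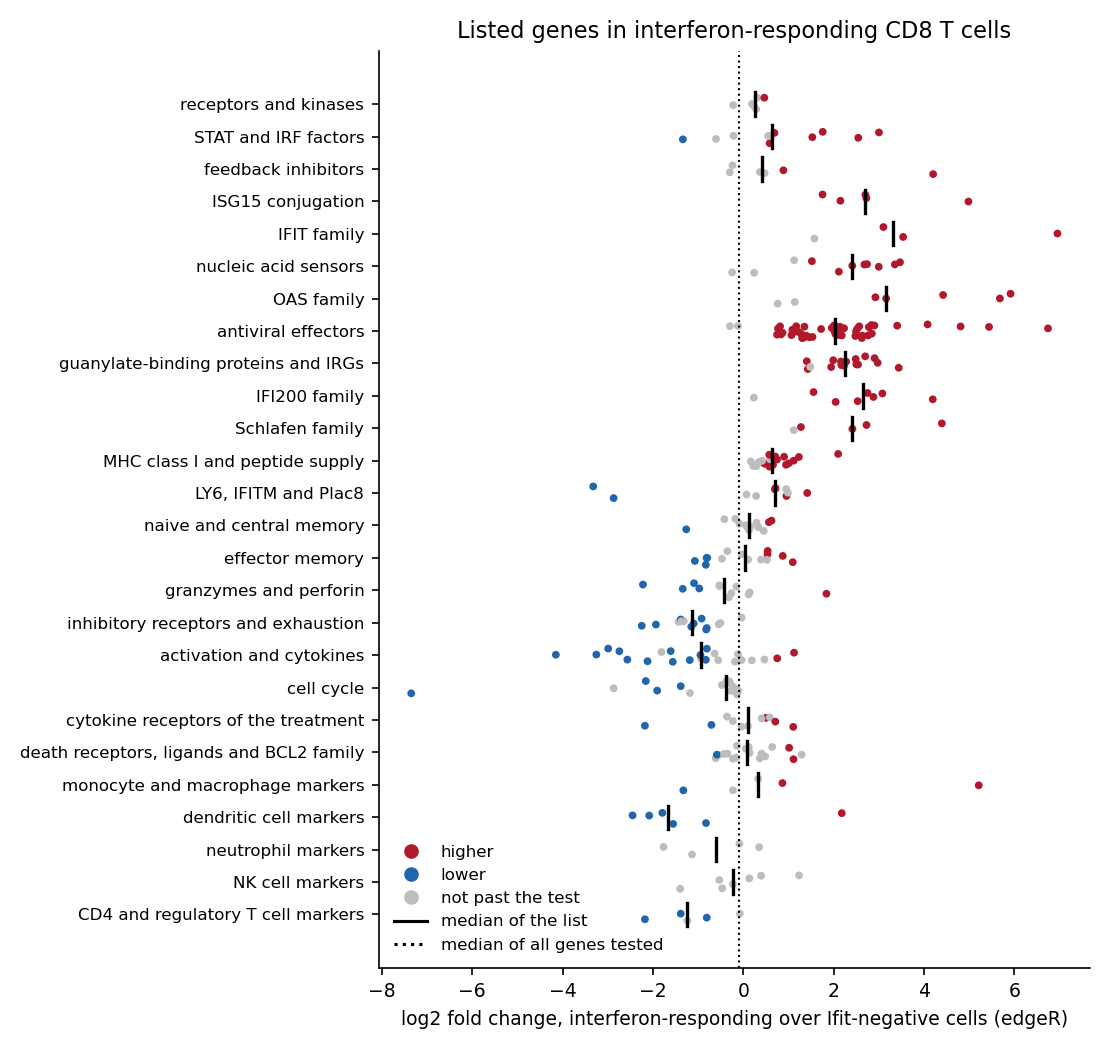
Log2 fold changes (x axis) of the tested genes of each list (y axis, lists with at least 4 tested genes), as points colored by edgeR's call, with the list's median (solid) and the median of all genes tested (dotted, -0.09). Lists of ISGs lie to the right, with medians of 2.03 for antiviral effectors and 0.63 for MHC class I, and inhibitory receptors (-1.12) and activation genes (-0.93) to the left.

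Of 23 chemokine, cytokine and activation genes tested, 12 fell, 2 rose and 9 did not pass, with a median log2 fold change of -0.93, against 2.71% of all genes that fell. DESeq2 called 7 and limma-voom 9 of the 23 lower. Ccl3, a chemokine that draws myeloid and T cells, was at 25.4, 65.8, 0, 0 and 45.1 CPM in interferon-responding cells of untransduced ACT at day 5, PD1d/IL-2v ACT and PD1d/IL-2v/IL-33 ACT (days 5, 12 and 26). It was at 281, 690, 1310, 215 and 189 CPM in Ifit-negative cells, so the classes did not overlap (-3.25 ± 0.21, adjusted p = 7.31e-52). Its relative Ccl4 was at 50.8, 203, 100.003, 27.5 and 497 CPM against 1279, 1743, 3440, 410 and 765 (-2.74 ± 0.17). Ccl1 had no UMI in interferon-responding cells of 4 libraries and 46.3 CPM at day 26, against 85.0 to 592 (-2.99 ± 0.25). Csf2, the gene of the cytokine GM-CSF, had 1 UMI in the 209 cells of the 5 libraries together, so its fold is poorly known, and was at 3.41 to 45.3 CPM in Ifit-negative cells. The values of Ccl3, Ccl1 and Csf2 moved by more than 1.5 times without day 26, to -4.35 for Ccl3, with no change of call, and those of Ccl1 and Csf2 without PD1d/IL-2v ACT, to -2.30 and -3.33. Xcl1, a chemokine for cross-presenting dendritic cells, fell as well (-2.12 ± 0.17) but was at 381 CPM against 310 at day 26, the only 1 of the 5 libraries where it was higher, and 229 of its 313 UMIs there came from 1 cell. At day 26, 1 cell also gave 37 of the 38 UMIs of Ccl1 and 206 of the 408 UMIs of Ccl4. Tnfrsf9 (4-1BB), Tnfrsf4 (OX40) and Nr4a2, which are induced through the T cell receptor, fell by 1.56, 2.57 and 1.18 on the log2 scale. Cd69, which is induced both by the T cell receptor and by interferon and holds T cells in tissue, rose instead (1.13 ± 0.15). It was at 622, 375, 157, 376 and 306 CPM against 199.5, 178, 137, 109 and 158.

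Of 14 inhibitory receptor and exhaustion genes, 8 fell, against 2.71% of all genes, none rose and 6 did not pass. The median log2 fold change was -1.12, and DESeq2 and limma-voom each called 4 of the 14 lower. Rgs16, a regulator of G protein signaling that exhausted T cells express, was at 165, 10.1, 100.003, 110.0 and 45.1 CPM against 519, 448, 308, 238 and 199 (-2.25 ± 0.20, adjusted p = 4.1e-28), and the classes did not overlap. Havcr2 (TIM-3) was at 38.1, 0, 28.6, 18.3 and 7.31 CPM against 89.8, 47.4, 62.9, 54.7 and 26.6 (-1.93 ± 0.36), and Ikzf2 fell by 1.38 ± 0.24. Rgs16, Havcr2 and Ikzf2 were called by all 3 tools. Pdcd1, which encodes PD-1 and was the most abundant of the list, was at 812, 15.2, 200.006, 128 and 275 CPM against 878, 345, 217, 228 and 356 (-0.82 ± 0.16, adjusted p = 2.25e-05). Without PD1d/IL-2v ACT the value was -0.47 (adjusted p = 0.126), and DESeq2 (adjusted p = 0.69) and limma-voom (adjusted p = 0.222) did not call Pdcd1. Ctla4 (-0.81 ± 0.18) was likewise at -0.51 without PD1d/IL-2v ACT (adjusted p = 0.144), and DESeq2 and limma-voom did not call it. Over the whole list, the summed level was 2094, 451, 929, 752 and 1050 CPM in interferon-responding cells against 3384, 2192, 1605, 1217 and 1512.

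**Figure D5:**
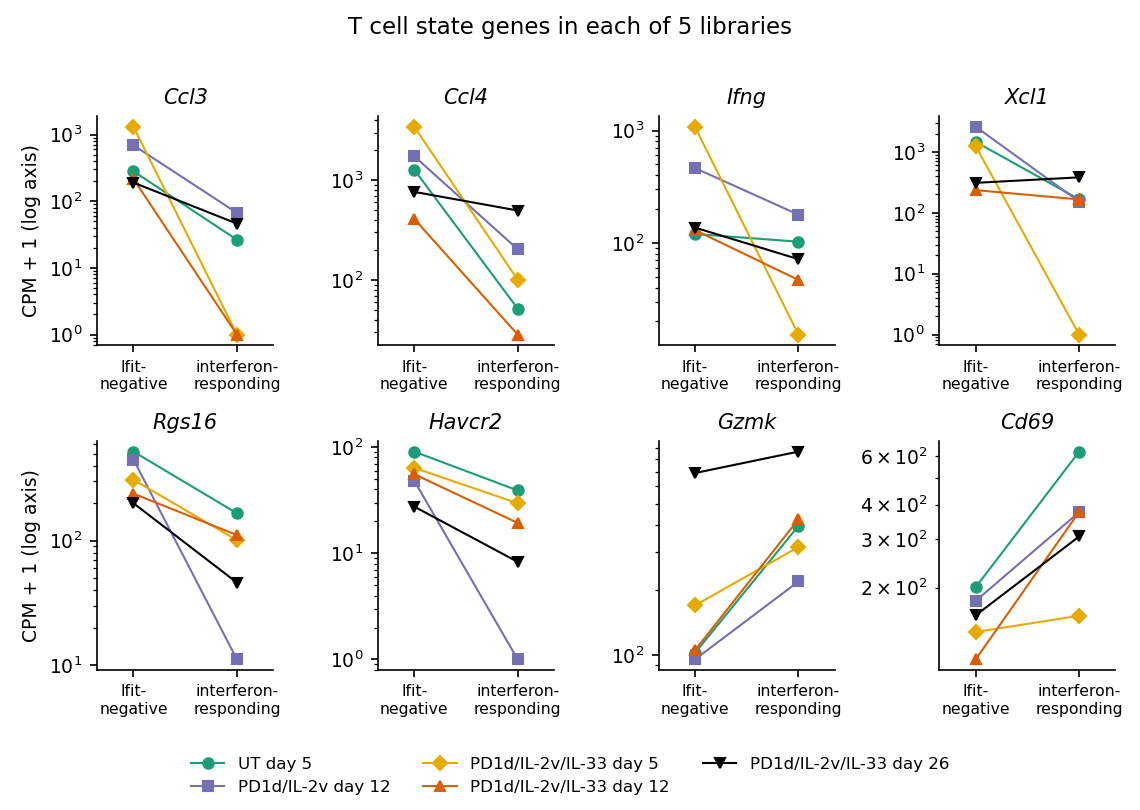
CPM + 1 (y axes, log scale) of 8 T cell state genes in the summed Ifit-negative and interferon-responding CD8 T cells (x axes) of 5 libraries, 1 line each (UT, untransduced ACT). Ccl3, Ccl4, Ifng, Rgs16 and Havcr2 fall and Gzmk and Cd69 rise on every line, and Xcl1 falls in 4 of 5 libraries.

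Genes of naive and memory cells were called in both directions. Of 14 naive and central memory genes, 2 rose, 1 fell and 11 did not pass, against 3.28% and 2.71% of all genes. S1pr1, a receptor that lets T cells leave tissue, was 1 of the 2 (0.63 ± 0.21, adjusted p = 0.0443), and it lost its call or changed direction under 13 alternatives. Tcf7, a transcription factor of naive and memory cells, did not pass (0.13 ± 0.19). Ccr7, which guides T cells to lymph nodes, fell in 5 of 5 libraries (-1.26 ± 0.19). It was at 178, 162, 200.006, 45.8 and 12.2 CPM against 550, 207, 231, 143 and 73.4. Il7r (0.57 ± 0.18) was at 0.33 without PD1d/IL-2v ACT (adjusted p = 0.59) and at 0.34 without day 5 of PD1d/IL-2v/IL-33 ACT (adjusted p = 0.435), and DESeq2 and limma-voom called none of the 14 genes higher. Of 14 effector memory genes, 4 rose and 4 fell, but DESeq2 and limma-voom each called 2 higher, and at 2000 UMIs per cell 0 of 14 were higher and 3 lower. Gzmk, a granzyme of effector memory cells, was at 393, 218, 314, 422 and 866 CPM against 101, 94.7, 169, 104 and 690 (1.1 ± 0.16, adjusted p = 2.3e-10), higher in 5 of 5 libraries, though at 2000 UMIs per cell it did not pass (0.54, adjusted p = 0.264). Cxcr4 rose by 0.87 ± 0.18. Ccl5, the most abundant of this list (0.54 ± 0.12), was higher in 3 of 5 libraries, and its call was lost without untransduced ACT at day 5 (0.30, adjusted p = 0.302) or without day 12 of PD1d/IL-2v/IL-33 ACT (0.35, adjusted p = 0.153). Lgals1 and S100a6, which rise on activation, fell by 0.81 and 0.83.

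Among 12 granzyme and perforin genes, 1 rose and 4 fell, against 3.28% and 2.71% of all genes. DESeq2 called 0 higher and 3 lower, and limma-voom called 1 higher and 3 lower. Prf1, the gene of perforin, was at 12.7, 30.4, 0, 27.5 and 68.2 CPM against 119, 154, 163, 99.3 and 86.7 (-1.34 ± 0.23), and at -2.76 without day 26. Gzmb, the main granzyme of cytotoxic cells, did not pass (0.12 ± 0.13). Gzmc and Gzmg are granzymes of one gene cluster with near copies. Gzmc was lower in 5 of 5 libraries, at 394 against 903 CPM at day 12 of PD1d/IL-2v/IL-33 ACT and at most 10.1 against 5.89 to 205 in the others (-2.22 ± 0.25), and at -4.87 without day 12. The 43 UMIs of Gzmc at day 12 all came from 1 of the 16 interferon-responding cells, while 20.6% of Ifit-negative cells there had a UMI of it. Gzmg was higher at day 12 of PD1d/IL-2v/IL-33 ACT (605 against 140 CPM) and had no UMI in interferon-responding cells of the other 4 libraries, and its 66 UMIs at day 12 all came from 1 of 16 cells, so its call (1.84 ± 0.33) rests on that cell.

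Of the receptors for the cytokines of the treatment, the alpha chain gene Il2ra (CD25) fell, at 12.7, 20.3, 0, 18.3 and 8.53 CPM against 79.0, 76.1, 158, 66.4 and 25.2 (-2.18 ± 0.34). The common gamma chain gene Il2rg rose (0.50 ± 0.14), Il2rb did not pass (-0.36 ± 0.15), and Il1rl1, the IL-33 receptor, was too low to test, with 4 UMIs in the 214 cells. The call of Il2rg was lost without PD1d/IL-2v ACT (0.39, adjusted p = 0.192) and without day 26 (0.48, adjusted p = 0.0603). Of 18 genes of cell death, 2 rose and 1 fell, against 3.28% and 2.71% of all genes, and DESeq2, limma-voom and thinning called none lower. Casp8 (1.02 ± 0.19) and Casp4 (1.11 ± 0.26), both caspases, rose, and Bax, an activator of the mitochondrial pathway, fell (-0.58 ± 0.18). The call of Casp4 was lost without day 26 (0.94, adjusted p = 0.173), and that of Bax without PD1d/IL-2v ACT or without either earlier day of PD1d/IL-2v/IL-33 ACT (-0.55 to -0.53). With cells that had Mki67 left out of both classes, 4 of 16 cell cycle genes fell and none rose (2.71% of all genes fell), while DESeq2 called 2 lower, 0 of 12 were lower at 2000 UMIs per cell, and 15 of 16 were lower with Mki67+ cells kept among the Ifit-negative cells. The 4 genes included Stmn1 (-2.16 ± 0.35), a regulator of microtubules, which was at -2.85 without day 12 of PD1d/IL-2v/IL-33 ACT.

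Outside the lists, 10 genes were named for the highest fold changes with a rise in all 5 libraries. Rnf213, a large ubiquitin ligase, was at 317 to 686 CPM against 41.3 to 66.2 (2.80 ± 0.16). Pml, which forms nuclear bodies (2.60 ± 0.22), Trafd1, an inhibitor of innate signaling (2.59 ± 0.18), and Mov10, an RNA helicase (2.15 ± 0.24), followed, beside BC094916, AW011738, Gm6904, Treml2, Hsh2d and an entry of Gbp6 (2.19 to 2.74). Gbp6 is on the list of guanylate-binding proteins, but its symbol is shared between entries. It was therefore not matched to that list and was counted outside the lists. The genes that fell most outside the lists had 0 UMIs among the 1276465 UMIs of interferon-responding cells of the 5 libraries, so that only a bound can be given, with a floor of 3 UMIs over these libraries. Such a bound treats UMIs as independent over cells. Where few cells hold most UMIs of a gene, as for Gzmc above, the true fold can be smaller. The levels of Ifit-negative cells in each library would have given 17.3 UMIs of Gpm6b, which was on that basis at least 5.75-fold lower, 14.2 of Serpinb9b (at least 4.74-fold), 9.61 of Klri2 (at least 3.20-fold) and 9.31 of Myo10 (at least 3.10-fold). Upp1, Cd81, Polr3g, Ryk, Lrrc32 and Phlda3 had bounds of 2.46-fold to 3.06-fold. The calls of Myo10, Cd81, Ryk, Lrrc32 and Phlda3 were lost without at least 1 of the 5 libraries (adjusted p between 0.0551 and 0.283).

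Markers of other cells were checked because a droplet with a second cell or free RNA can bring in transcripts of other cells, and their part in the differences was not tested. Of 16 markers of monocytes and macrophages in the gene list, 11 had a UMI in interferon-responding cells and 5 (C1qa, C1qb, Apoe, Adgre1 and Ms4a7) had none. Their sum was 1066, 633, 171, 632 and 455 CPM in the order of libraries above, against 252, 309, 202, 336 and 187 in Ifit-negative cells. The most abundant was Cxcl10, itself an ISG that encodes a ligand of CXCR3, at 787, 238, 14.3, 486 and 186 CPM against 21.9, 4.06, 5.42, 2.99 and 8.11 (5.21 ± 0.21). Ctss, a protease, rose (0.87 ± 0.18), Fcer1g fell, and Csf1r, C1qc, Fcgr1, Cd14 and Cxcl9 had 1 to 3 UMIs each. The call of Fcer1g (-1.33 ± 0.28) was lost without day 12 of PD1d/IL-2v/IL-33 ACT (-0.60, adjusted p = 0.367), and its value was -2.11 without PD1d/IL-2v ACT. Fcer1g was also not called with DESeq2, with limma-voom or at 2000 UMIs per cell. Of 14 dendritic cell markers, 6 had no UMI (Flt3, Clec9a, Cd209a, Siglech, Ccr9 and Fscn1). Bst2 (tetherin), also an ISG, rose (2.18 ± 0.15) and took 602 of their 753 CPM, while the class II genes H2-Aa (-2.45 ± 0.48), H2-Ab1 (-2.08 ± 0.55), H2-Eb1 and Cd74 fell. The calls of H2-Aa and H2-Ab1 were lost without day 26 (-3.08 and -2.77, adjusted p = 0.0614 and 0.152). With a stricter gate against other lineages, 0 of the 6 dendritic cell markers tested fell, against 5 with the gate used, and H2-Aa and H2-Ab1 were at -1.38 and -1.27 (adjusted p = 0.188 and 0.359), while Cxcl10 was at 5.22 and Bst2 at 2.19. B cell, neutrophil and melanoma markers summed to 12.2, 13.0 and 0.763 CPM, against 8.45, 23.4 and 1.86 in Ifit-negative cells, and red cell markers were at 0. Over all genes, 268 rose and 207 fell with that stricter gate. Of 5 markers of CD4 and regulatory T cells tested, 3 fell (Il2ra, Ikzf2 and Ctla4, which CD8 T cells also express), against 2.71% of all genes. Foxp3 and Cd40lg did not pass (-1.24 ± 0.68 and -0.07 ± 0.63). DESeq2 and limma-voom each called 2 of the 5 lower. The 6 markers of that list summed to 167 against 363 CPM, with Ctla4 the most abundant and Foxp3 at 5 UMIs in the 214 cells, and 3 of 5 fell under the stricter gate as well. Of 7 NK cell markers tested, none passed the test (438.7 against 453 CPM in sum over 10 markers).

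The motif shown at the start was also counted over the genes that moved. Of 230 genes with an entry that rose, 50 (21.7%) held at least 1 match in the 250 bases before a start site, against 4 of 188 (2.13%) that fell and 179 of 6505 (2.75%) that did not pass. Outside the lists, 15 of 131 genes that rose held it (11.5%). Among the genes that rose, Irf7, Cmpk2, Oasl1 and Tap1 held no match of these letters in this window. Of the T cell state lists, it was held by 2 of 11 effector memory genes (Gzma and Eomes), 1 of 12 granzyme and perforin genes, 0 of 11 naive, 0 of 8 inhibitory receptor and 0 of 18 activation genes, lists too short to be set against the share of all genes.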

How the data were processed

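The libraries were made from CD45+ cells with the 10x Genomics 5′ assay. Per the paper's methods and the labels, the authors obtained UMI counts with Cell Ranger (version 2.2.0 in the submitters' processing notes, a later one in the paper's methods) on GRCm38, aggregated 8 libraries and deposited the counts without normalization. Whether depth was equalized in the aggregation is not given in the sources used here. Barcodes were assigned to libraries by suffix and the deposited aggregation table, with 400 to 3700 barcodes per library, each a round number. Some libraries share a run identifier in that table. Day 12 of untransduced ACT shares 1 with day 12 of PD1d/IL-2v/IL-33 ACT, the PD1d/IL-33 library shares 1 with PD1d/IL-2v ACT, and non-treated tumors share 1 with day 26 of PD1d/IL-2v/IL-33 ACT. The paper describes neither of that last pair for this experiment.

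The cell filter is that of the methods. No doublet caller was run, and a stricter gate was tried instead. Counts summed over cells are given as CPM with exact 95% Poisson intervals, and shares with exact Clopper-Pearson intervals, with a floor of 3 counts, for counting error only. Thinning to 2000 UMIs used seed 1. A library entered the test with at least 10 interferon-responding cells. Sums of UMIs per library and class were tested with edgeR 4.0.16 (TMM factors, filterByExpr, library as a block) in R 4.3.3. DESeq2 1.42.0 and limma 3.58.1 gave alternatives. Genes of the gate were left out of the counts. SE is the fold change over the root of the F statistic. Sums, shares and intervals were computed in Python 3.11.15 (scipy 1.17.1, pandas 2.3.3, numpy 2.4.6), and figures drawn with matplotlib 3.10.9. Promoters came from RefSeq (GRCm38.p6).

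Named genes are Ifit1, Ifit3, Isg15, Rsad2 and Mx1, up to 3 called genes with the largest absolute fold change and the most abundant gene of each list, and outside the lists the 10 highest and 10 lowest fold changes among called genes with at least 50 UMIs and 1 direction in 5 libraries. The remaining genes named, such as Ccl4, Xcl1, Irf9, Lgals1 and Gzmb, were chosen after their values were seen. Of 394 listed genes, 379 were matched by symbol to the deposited gene list. The unmatched genes include Gbp6 and Itgam, whose symbols are shared between entries. Some listed genes are not reported here by name. The cells and lists were chosen with earlier results of these data known.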

Additional observations from a re-analysis of the deposited data

How the results depend on the processing

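Counts of genes that rose ranged from 205 to 285 when each library was left out, and were 132 at 2000 UMIs per cell. Counts of genes that fell depended more on the processing. They were 67 with DESeq2, 116 with limma-voom, 72 at 2000 UMIs per cell and 61 in cells of 4000 to 15000 UMIs (3 libraries). With at least 5 Ifit1 and Ifit3 UMIs, which also left 3 libraries, 89 genes fell. The count was 551 with Mki67+ cells kept among the Ifit-negative cells, 435 without the use of Mki67, and 151 to 290 when each library was left out. Of the changes from edgeR's 244 genes, the causes were not tested. The share of interferon-responding cells was 7.21% with at least 2 UMIs, 2.76% with at least 5, 2.25% at 2000 UMIs per cell, 5.30% with the filter of a later experiment, 2.84% as the mean of the library shares, and 2.86% (without day 26 of PD1d/IL-2v/IL-33 ACT) to 4.98% when each library was left out. The difference in interferon pathway genes detected per cell was 9.58 with at least 2 UMIs (exact sign-flip permutation test over 6 libraries, p = 0.0312) and 12.8 over the 7 libraries with a cell, 2 of which had 1 and 4 cells (p = 0.0156, exact permutation test). Each is the smallest p that its number of libraries allows, and a positive difference followed from the choice of cells. The p thus says nothing about stability. For named genes, 1582 values under the alternatives kept their side of the threshold, 189 lost the call and 6 gained it. Genes called in the main fit also kept their direction among the 1582. Counted as changed in direction was 1 value, S1pr1 with at least 5 UMIs (-0.0099). Changes of direction in genes called in neither fit were not counted. No paired analysis was possible because each group holds 1 library. The library block pairs 2 classes of cells and not groups. With 12 to 24 cells in 4 of the 5 libraries, low genes were poorly measured.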
